A study of Mus musculus with 6 samples.

Results

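Genes named for proteins of the cytoplasmic ribosome were examined in cells sorted from the ventral mesencephalon of mouse embryos at embryonic day 12.5. Probe sets were selected on the gene symbol alone: a probe set was taken when the platform annotation gave it exactly 1 symbol and that symbol was of the Rpl or Rps type, or Rpsa, Rplp0, Rplp1 or Rplp2. Pseudogene symbols and the S6 kinases were left out. This gave 105 of 45037 probe sets, for 49 genes. Of these genes, 23 belong to the small (40S) subunit, with 57 probe sets, and 26 to the large (60S) subunit, with 48 probe sets. The family was taken up with earlier results of these data known, among them that the Rps9 probe sets differ from each other, so the Rps9 values below are a description with no test.

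The positive group was 3 arrays of GFP-positive cells from Ngn2-GFP reporter mice on a CD1/129 background. Ngn2 (symbol Neurog2) is a proneural transcription factor, and the study took these cells as midbrain dopaminergic progenitors. The negative group was 3 arrays of GFP-negative cells from Lmx1a-GFP reporter mice on a C57BL/6 background. Lmx1a is a transcription factor of the dopaminergic lineage, and its GFP-negative cells served as the non-dopaminergic reference. Reporter line, strain and gate all change with the group and cannot be told apart. The design text calls the 3 samples of each group biological replicates. Each array measured the total RNA of 1 sorted sample, so fewer cells of a type and less RNA per cell cannot be told apart.

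Each ribosome holds a single copy of most of these proteins, and growing cells devote a large share of their mRNA to them. The mRNAs of most members begin at a C followed by a run of C and T, the terminal oligopyrimidine tract, through which the kinase mTORC1 and the RNA-binding protein Larp1 control their translation. Neural progenitors make ribosomes actively, and mutations in several members impair red cell formation in Diamond-Blackfan anaemia. Many members have processed pseudogenes of nearly the same sequence, so that 1 probe set can detect transcripts from several places in the genome.

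Annotated start sites were searched for runs of C and T of the kind found in this class of mRNA. The RefSeq promoter table for GRCm38.p6 held 51 starts of 43 of the 49 genes. A C followed by at least 4 bases that were all C or T began within 10 bases of 28 of the 51 starts (54.9%), against 30.7% of all 32851 starts in the table. A run of at least 8 such bases was found at 17 member starts (33.3%) and at 8.11% of all starts. Below are the 30 bases around the start, 15 on either side, read 5′ to 3′ on the strand of the gene, for 8 members on which the results turn. Capitals mark the longest such run and lower case the rest, and Rps28 and Rpl7l1 had no run within these 10 bases.
Rps9 (chr7:3704026-3704055, + strand): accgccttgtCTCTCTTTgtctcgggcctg
Rps18 (chr17:33955651-33955680, - strand): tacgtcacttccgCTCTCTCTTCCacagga
Rps28 (chr17:33824548-33824577, - strand): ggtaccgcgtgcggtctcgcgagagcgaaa
Rpl38 (chr11:114668565-114668594, + strand): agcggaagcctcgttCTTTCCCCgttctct
Rpl39 (chrX:37085208-37085237, - strand): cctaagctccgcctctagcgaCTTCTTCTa
Rpl35 (chr2:39005117-39005146, - strand): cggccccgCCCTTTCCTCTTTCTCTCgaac
Rpl22l1 (chr3:28805493-28805522, + strand): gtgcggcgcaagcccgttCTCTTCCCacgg
Rpl7l1 (chr17:46782642-46782671, - strand): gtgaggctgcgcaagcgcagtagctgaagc
Rps9, Rpl38, Rpl39 and Rpl22l1 each showed a run of 8 bases, Rps18 showed 1 of 11 bases and Rpl35 showed 1 of 18 bases. In the window from 250 bases before to 50 bases after the start, searched on both strands, CCGGAAG stood at 21 of the 51 member starts (41.2%) and at 8.86% of all starts. AAGATGG stood at 8 (15.7%) against 6.34%, and TATAAA at 6 (11.8%) against 13.6%. These 3 motifs and the length of 8 were chosen after the data were seen, and a match is a description of the letters only.

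The members' signals differed between arrays of the positive group. Probe sets entered the test when their signal passed the 40th percentile on 3 arrays or more, and 98 of the 105, of 44 genes, did so. For each array, the log2 signal of each tested probe set was taken minus the mean of the 3 negative arrays. The median over the 98 was -0.53 on positive replicate 1, -0.40 on positive replicate 2 and 0.08 on positive replicate 3. On negative replicates 1, 2 and 3 it was -0.03, -0.07 and 0.09. Positive replicates 1 and 2 thus lay apart from the other 4 arrays, and positive replicate 3 lay among the negative arrays. Over all 27738 tested probe sets, the same medians were 0.15, 0.10 and 0.01 on the positive arrays and 0.08, -0.01 and -0.04 on the negative ones.

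**Figure D1:**
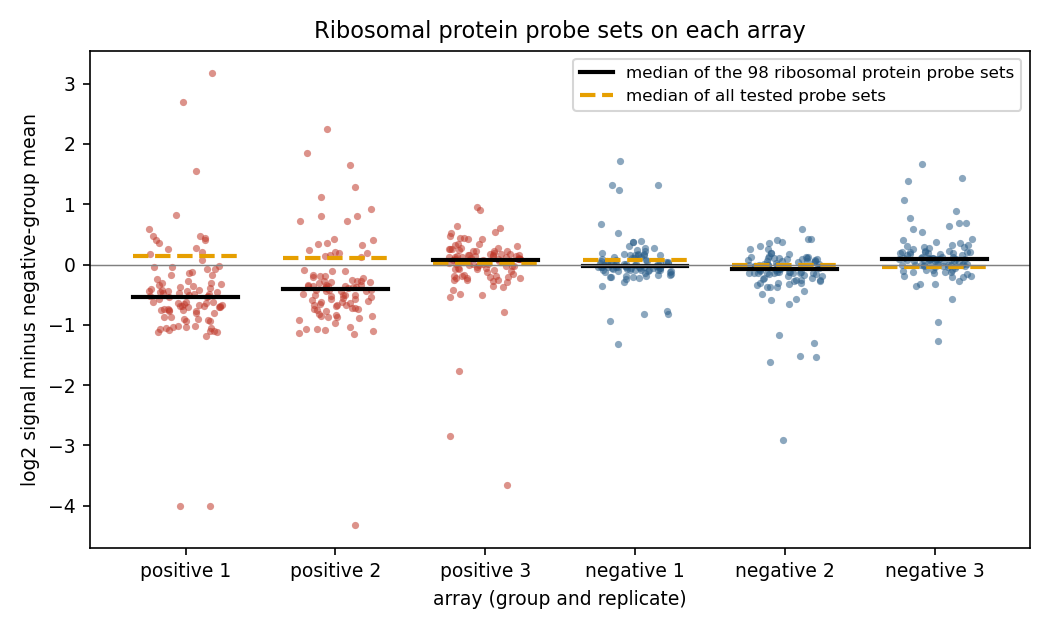
Each point is 1 of the 98 tested ribosomal protein probe sets, and the y axis gives its log2 signal minus the mean of the 3 negative arrays. Solid lines mark the median of these probe sets, which is -0.53 and -0.40 on positive replicates 1 and 2 and between -0.07 and 0.09 on the other 4 arrays, and dashed lines the median of all 27738 tested probe sets.

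The summed signal of the 98 tested probe sets was 92899 on positive replicate 1 and 100952 on positive replicate 2. It was 154590 on positive replicate 3 and 152354, 151818 and 158641 on negative replicates 1, 2 and 3. The 4 arrays with the higher sums thus included 1 array of the positive group. The same split was present in control probe sets. Hybridization spike-ins, RNAs added in equal amount to each sample before hybridization, had mean signals of 2293 and 2352 on positive replicates 1 and 2 and of 4254 to 6560.5 on the other 4, positive replicate 3 among them with 5018. Probe sets for 18S rRNA had means of 3713 and 3696 on the former pair and of at least 7241 elsewhere. The ratio of 3′ to 5′ signal is a measure of how far labelled RNA reaches. For Gapdh it was 4.41 and 4.73 on positive replicates 1 and 2 and 5.94 to 9.21 on the others. For b-Actin it was 1.16, 1.15 and 1.13 on positive replicates 1, 2 and 3. On the negative ones it was 1.05, 1.14 and 0.97, so this ratio showed no such gap. The labels name no batch, and the part of these control values in the ribosomal protein result was not tested.

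Positive replicates 1 and 2 were both below all 4 other arrays for 59 of the 98 probe sets (60.2%), against 10.7% of all tested probe sets. This share moved with signal strength. A probe set is here called bright when its mean log2 signal over the 6 arrays lay above the mean of the 90th percentiles of these arrays, and dim otherwise. Of the 69 bright ribosomal protein probe sets, 57 showed the pattern (82.6%), against 34.6% of all 4416 bright probe sets. The limit for bright was chosen after the data were seen. When it had to be passed on each of the 6 arrays, which leaves out Rps9 1434624_x_at through its low positive values, 52 of 61 members showed the pattern (85.2%), against 39.2% of all 3423 such probe sets. On positive replicate 1 the median bright ribosomal protein probe set stood at 0.632 of the negative mean, on positive replicate 2 at 0.708 and on positive replicate 3 at 1.06. Bright probe sets of all genes had medians of -0.15, -0.12 and 0.05 on these arrays in log2 units, against -0.66, -0.50 and 0.09 for the bright ribosomal protein ones.

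Rps29, a small subunit protein mutated in Diamond-Blackfan anaemia, had the lowest difference of the bright members outside Rps9. Probe set 1438859_x_at read 3217, 3313 and 7359.8 in positive replicates 1, 2 and 3 and 7623, 7569 and 6861 in the negative ones. Positive replicates 1 and 2 were low, and positive replicate 3 lay within the negative range. The log2 difference of positive minus negative was -0.78 (SE 0.30, n = 3 per group), with an adjusted p of 0.443 in the limma fit. It was 0.0034 with the spike-in level as a block and -0.10 after quantile normalization, where Rps28 1454778_x_at was lower, at -0.36. Rpl38, a large subunit protein whose loss alters skeletal patterning in mice, read 2609.9, 2619.6 and 5328 against 5397, 6077 and 5203. Its difference was -0.74 (SE 0.28, adjusted p = 0.439), or -0.058 with the spike-in level as a block, with the same array within the negative range.

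**Figure D2:**
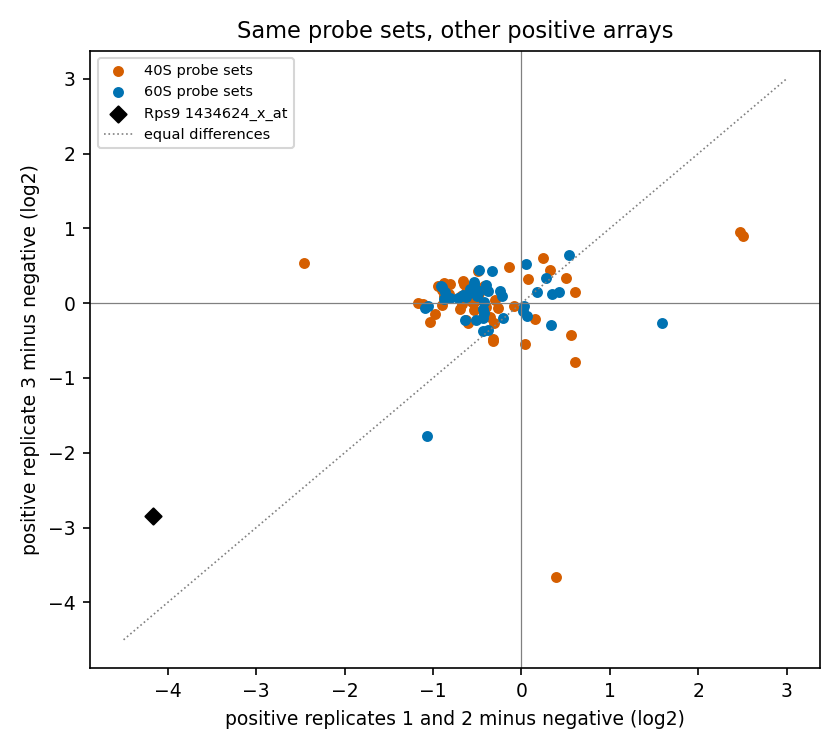
Each point is 1 of the 98 tested probe sets, with the mean of positive replicates 1 and 2 minus the negative mean on the x axis and positive replicate 3 minus the negative mean on the y axis, both in log2 units. Both axes share the 3 negative arrays. Most points lie left of 0, near 0 in height and above the dotted line of equal differences, and Rps9 1434624_x_at lies far below 0 on both axes.

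Between the groups as labelled, 1 of the 98 probe sets passed an adjusted p of 0.05 (1.02%), an Rps9 probe set, against 0.537% of all 27738 tested probe sets (149, of which 52 were higher and 97 lower in positive cells). The members were selected with the value of that probe set known, so the count supports nothing. Without an adjustment, 16 of the 98, that probe set included, and 2617 of all tested probe sets had p under 0.05. Below 0 lay 78 of the 98 differences (79.6%), against 44.8% of all, and the median was -0.32 with quartiles of -0.49 and -0.11, against 0.06 for all. After quantile normalization the median was -0.11, with 65 of the 98 below 0, against 0.03 for all. Without the filter, all 105 probe sets had a median of -0.32, with 81 below 0. The 7 probe sets that did not enter the test, 1 each of Rpl37, Rpl39l, Rpl3l, Rps16, Rps24, Rps27 and Rps3, read at most 37.1 on any array. For 5 of the 49 genes, no probe set with the symbol alone was tested. Of these genes, Rps27, Rpl37 and Rps16 had bright tested probe sets shared with other symbols, outside the selection.

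The median depended on the arrays taken. With the 2 levels of the spike-in signal as a block, a fit whose group difference rests on positive replicate 3 against the negative arrays, the median was 0.08, and 39 of the 98 differences were below 0. The Rps9 probe set alone passed, against 0.216% of all tested probe sets. Without positive replicate 3, group and spike-in level coincide, and the median was -0.49. In that fit 22 of the 98 (22.4%) were lower and passed, against 2.07% of all probe sets tested there, and 21 of these, in 15 genes, were not Rps9. All 21 were bright. With Rps9, 22 of the 69 bright members (31.9%) were lower and passed, against 9.71% of all 4416 bright probe sets in the same fit. The 21 included Rps29, Rpl38, Rps28, Rps20, Rps24, Rpl11, Rplp2, Rpsa, Rps3 and Rpl22l1. The lowest adjusted p among them was 0.000662, for Rps29 1438859_x_at at -1.17.

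All 3 positive arrays lay below all 3 negative arrays for 13 of the 98 (13.3%), against 5.98% of all tested probe sets. Without Rps9, whose values were known when the family was taken up, it was 11 of 95. Among bright probe sets, it was 10 of 69 members and 338 of all 4416. The 13 were 2 probe sets each of Rps9, Rps15 and Rps28 and 1 each of Rps3, Rps10, Rps19, Rpl14, Rpl22, Rpl27 and Rpl39. All 3 positive arrays lay above for 1 of the 98 (1.02%), a probe set of Rps18, against 7.96% of all. Apart from Rps9, the smallest adjusted p was 0.117 (limma), for Rpl39, and with the spike-in level as a block it was 0.226.

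Rps9 encodes a small subunit protein that lines the path by which mRNA enters the ribosome. Its 3 probe sets did not give the same picture. Probe set 1434624_x_at read 341, 272 and 758 on positive replicates 1, 2 and 3 and 4993, 6787 and 4789.7 on the negative ones, a log2 difference of -3.72 (SE 0.32). Its groups lay far apart, and positive replicate 3 was the highest of the positive arrays. With the spike-in level as a block the difference was -2.85, and without positive replicate 3 it was -4.16. Probe set 1433689_s_at read 1180.3, 1406 and 1153 against 1696, 1465 and 1675, a difference of -0.37 (SE 0.20), and its groups did not overlap either. Probe set 1426958_at, much dimmer, read 48.6, 29.7 and 48.8 against 18.3, 35.1 and 51.7, a difference of 0.36 (SE 0.46), and its groups overlapped. The 3 differences spanned 4.09 log2 units. The platform table assigned all 3 probe sets to Rps9 alone, and the sequences of their probes were not used here. What 1434624_x_at detects was not tested.

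**Figure D3:**
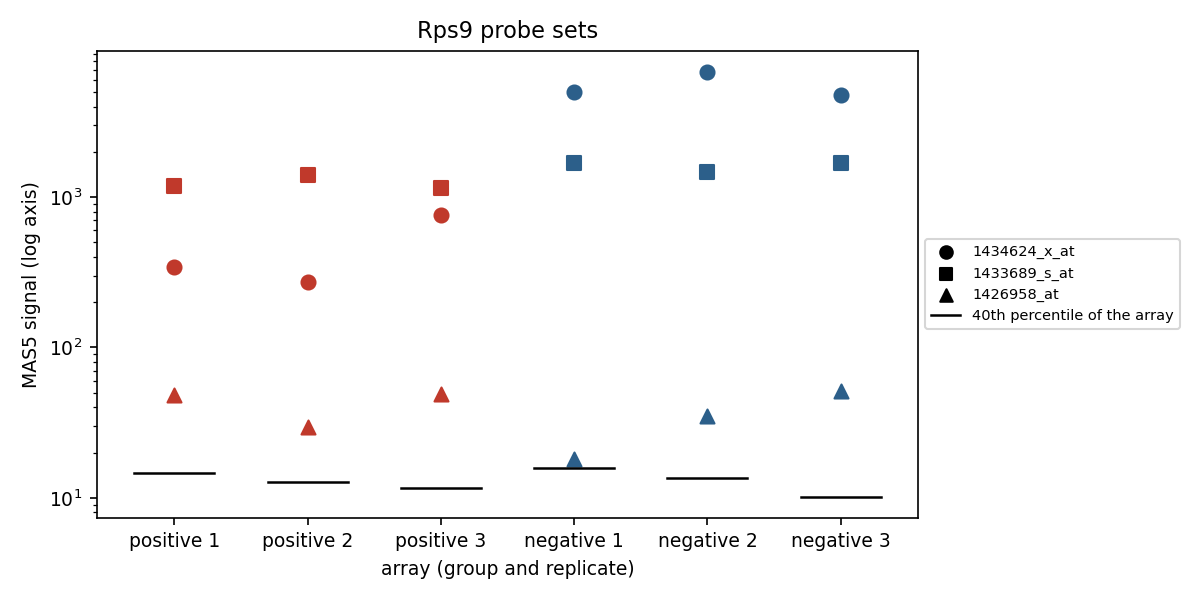
MAS5 signal of the 3 Rps9 probe sets on each array, on a log axis, with red points for positive and blue points for negative arrays and short lines for the 40th percentile of each array. The circles of 1434624_x_at lie between 272 and 758 on the positive arrays and between 4790 and 6787 on the negative arrays, while the squares of 1433689_s_at lie between 1153 and 1696 on all 6.

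Of the other small subunit genes, Rps28, also mutated in Diamond-Blackfan anaemia, had 3 bright probe sets whose differences lay within 0.07 of each other. Probe set 1454778_x_at read 1691, 1843 and 3047 on the positive and 3658, 3888 and 3330.4 on the negative arrays. Its groups did not overlap, and the difference was -0.77 (SE 0.25, adjusted p = 0.33). The other 2 Rps28 probe sets gave -0.70 and -0.75. With the spike-in level as a block, the 3 gave -0.25, -0.15 and -0.0096.

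Rps20, a small subunit protein mutated in some families with colorectal cancer, had 4 tested probe sets. The bright 1456373_x_at read 2162, 1779 and 3591 against 3719, 3913 and 3344, with only positive replicate 3 in the negative range, and gave -0.61 (SE 0.26, adjusted p = 0.496). The bright 1456436_x_at gave -0.55. The dim 1421935_at read 50.3, 90.4 and 60.1 against 53.1, 51.4 and 39.5 and gave 0.45 (SE 0.35), so that probe sets of Rps20 differed by 1.05 log2 units. The fourth, 1450417_a_at, gave -0.39.

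Rps18, at the head of the small subunit, had 6 tested probe sets that differed by 2.46. The 3 bright ones, 1435712_a_at, 1448739_x_at and 1455572_x_at, gave -0.31, -0.49 and -0.34. The dim 1421838_at read 64.7, 25.9 and 13.4 on the positive and 2.88, 9.65 and 13.3 on the negative arrays and gave 1.97 (SE 0.80, adjusted p = 0.466). It was the probe set for which all positive arrays lay above all negative ones, by a margin of 13.4 against 13.3. Only 1 of its 3 negative arrays read above the 40th percentile, and the same held for 1450390_x_at, so the sizes of both differences are imprecise. The dim 1450390_x_at read 45.3, 33.0 and 13.5 against 23.0, 2.40 and 6.14 with overlap and gave 1.97 (SE 0.86), and the dim 1421837_at gave -0.15.

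Rps6 is the small subunit protein that S6 kinase phosphorylates. Its dim probe set 1416142_at read 159, 208 and 142 against 152, 177 and 163, with overlapping groups and a difference of 0.032 (SE 0.24). The even dimmer 1453466_at gave -0.96 with an SE of 1.11, so that neither direction could be read at this precision. Bright probe sets shared by Rps6 and Rps6-ps4 were outside the selection. Of these, 1416141_a_at read 2767, 3058 and 4799 against 4381, 4735 and 4140 and gave -0.36, or 0.12 with the spike-in level as a block. With 1434377_x_at, 1454620_x_at and 1455693_x_at the differences were -0.51, -0.56 and -0.74, or -0.013, 0.15 and -0.0055 with that block. Rpsa, the small subunit protein also known as the laminin receptor precursor, read 1779, 2089.8 and 3294 against 2822, 3302 and 3177 on 1448245_at. The groups overlapped through positive replicate 3, and the difference was -0.42 (SE 0.25), or 0.090 with the spike-in level as a block. Its dim 1416196_at gave 0.23 (SE 0.54). Over the 53 tested small subunit probe sets, 42 differences lay below 0, with a median of -0.35.

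The small subunit genes most often mutated in Diamond-Blackfan anaemia include Rps19, Rps10 and Rps24. Rps19 read 374, 423 and 448 against 551, 451 and 531 on its single probe set. Its groups lay just apart and differed by -0.30 (SE 0.20), or -0.19 with the spike-in level as a block. Rps10 had 6 tested probe sets, of which 5 gave -0.50 to -0.18 and the dim 1436384_at gave 0.45 (SE 0.38). Of these, 1438723_a_at read 708, 668 and 875 against 1009, 950.3 and 1202 without overlap. Rps24 had 5 tested probe sets, 4 bright ones between -0.55 and -0.35 and a dim one at -0.20. On 1456628_x_at, Rps24 read 1717, 1764 and 3406 against 3325, 3077 and 3196, and positive replicate 3 was the highest array. With the spike-in level as a block the value on this probe set was 0.091, and that of Rps10 1438723_a_at was -0.26.

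Rps3, a small subunit protein that also acts in DNA repair, read 2435, 2805 and 3474 against 3699, 4226 and 4238 on 1435151_a_at. All positive arrays were below all negative ones, and the difference was -0.49 (SE 0.22), or -0.22 with the spike-in level as a block. Rps2 read 1272, 1348 and 1429 against 925, 701 and 1784, with the negative arrays spread more widely than the positive ones. The probe sets 1422156_a_at and 1431765_a_at, shared by Rps2 and other symbols and outside the selection, gave 0.014 and -0.12. With the block they gave 0.098 and 0.19. Rps25, a dispensable small subunit protein used by viral internal entry sites, read 191, 488 and 117 against 105, 183 and 420.3 and gave 0.14 with an SE of 0.51, or -0.78 with the spike-in level as a block. The brighter 1451068_s_at, shared by Rps25 and other symbols and outside the selection, read 1000, 1183 and 2285 against 1793, 2021 and 2451. It gave -0.57, or 0.14 with that block. Rps7, Rps26 and Rps3a1 gave -0.37 (1419364_a_at), -0.35 and -0.33, and 0.15, 0.0097 and 0.091 with that block.

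Over the 45 tested large subunit probe sets, 36 lay below 0, with a median of -0.28, and none passed at the adjusted p of 0.05, with 5 having an unadjusted p under 0.05. Rpl39, a small protein of the peptide exit tunnel, had the lowest value among them. Its dim probe set 1423032_at read 55.4, 55.9 and 34.2 on the positive and 105, 119.9 and 126 on the negative arrays. The groups did not overlap, and positive replicate 3 was the lowest array. The difference was -1.30 (SE 0.31, adjusted p = 0.117), and with the spike-in level as a block -1.77.

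Rpl11, part of the particle with 5S RNA that binds the p53 regulator Mdm2, read 2309, 2296 and 3964 against 3857, 3687 and 3788. Positive replicates 1 and 2 were low and positive replicate 3 was the highest of all 6 arrays, with a difference of -0.45 (SE 0.25, adjusted p = 0.591), or 0.070 with the spike-in level as a block. The ribosomal stalk gave unlike values for its members. Rplp0, the base of the stalk, read 1836, 2058 and 1666 against 1536, 1225 and 1901, with overlapping groups and a difference of 0.27 (SE 0.22, adjusted p = 0.733). Rplp2, an acidic stalk protein, read 897, 1161 and 2052 against 1875, 1690.1 and 2023 and gave -0.53 (SE 0.28), or 0.14 with the spike-in level as a block. Rplp0 was 1 of 4 bright members above 0, with Rps2 at 0.36, Rps14 1436586_x_at at 0.16 and Rpl19 at 0.0070. No test compared these with the other members.

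Rpl27 had 3 bright probe sets at -0.51, -0.50 and -0.42. Of these, 1453096_x_at read 1629, 1772 and 2263 against 3020.4, 2320.5 and 2615, with positive replicate 3 just under the lowest negative array, and gave -0.22 with the spike-in level as a block. Rpl14 read 232, 267 and 251 against 278, 357 and 339 on a dim probe set, also without overlap. Here the 3 positive arrays lay close together, with a difference of -0.37, or -0.36 with the block. Brighter probe sets shared by Rpl14 and Rpl14-ps1, outside the selection, gave -0.39 to -0.08, and 0.044 to 0.18 with the block. Rpl13a, which also acts in translational silencing of inflammatory mRNAs, had 4 probe sets from -0.53 to -0.011. Its 1455485_x_at read 2314, 2375 and 5154 against 4294, 5248 and 3807 and followed the split between arrays, at 0.22 with the block. Rpl4, Rpl6, Rpl7a, Rpl8 and Rpl10a gave -0.10, -0.30, -0.40, -0.12 and -0.53, and with the block 0.17, 0.12, 0.11, 0.090 and 0.22. Rpl12, which binds near the stalk, read 87.5, 114 and 107 against 56.3, 55.7 and 103 on a dim probe set with overlapping groups, at 0.57 (SE 0.32). Brighter probe sets shared by Rpl12 and other symbols, 1416026_a_at and 1435725_x_at, were outside the selection. They gave -0.25 and -0.49, or -0.077 and -0.17 with the block. Rpl41, the smallest ribosomal protein, had bright probe sets at -0.27 and -0.20 and dim ones at 0.30 and 0.21. Rpl37a likewise had -0.18 and -0.17 on bright probe sets and 0.17 on a dim one, and Rpl27a had -0.28 and -0.56.

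Several members have a paralog with a second expression pattern or an extra role. Rpl22, needed for T cell development, read 851, 962 and 942 against 1214, 1235 and 1225 on 1416603_at. All 3 positive arrays were below all negative ones, and the arrays of each group lay close together, with a difference of -0.42 (SE 0.19, adjusted p = 0.524). Its 2 other probe sets gave -0.32 and 0.33. Its paralog Rpl22l1 read 211, 207 and 423 against 383, 425 and 498, following the split between arrays, and gave -0.71 (SE 0.28, adjusted p = 0.446), or -0.032 with the spike-in level as a block.

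Rpl7, a large subunit protein, had 3 probe sets at -0.27, -0.082 and -0.30. Its paralog Rpl7l1 read 177, 231 and 186 against 195, 207 and 196 on its brightest probe set, with a difference of -0.019 (SE 0.22). The other 2 Rpl7l1 probe sets gave 0.13 and 0.98 with SEs of 0.47 and 0.99. Rps4x, an X-linked small subunit gene, gave -0.39 on 1416276_a_at and 0.067 (SE 0.84) on a dim probe set. Rps4l, listed as a transcribed pseudogene by RefSeq, read 1.95, 16.6 and 45.7 against 35.5, 32.1 and 27.2. Its lowest and highest arrays were both positive, and the difference of -1.46 had an SE of 0.91.

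Rps27l, a paralog of Rps27 that p53 induces, had 3 probe sets at -0.28, -0.068 and -0.21. Rps27 itself had 1 probe set with its symbol alone, which stayed under the limit for testing, as did the paralogs Rpl3l, known from muscle, and Rpl39l, known from testis. The bright 1415716_a_at, shared by Rps27 and Rps27rt and outside the selection, read 1774, 2458 and 4739 against 4323, 4409 and 4610. It gave -0.70, or 0.092 with the spike-in level as a block. Rpl3, Rpl5, Rpl10, Rpl36a and Rplp1 had no probe set with their symbol alone.

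**Figure D4:**
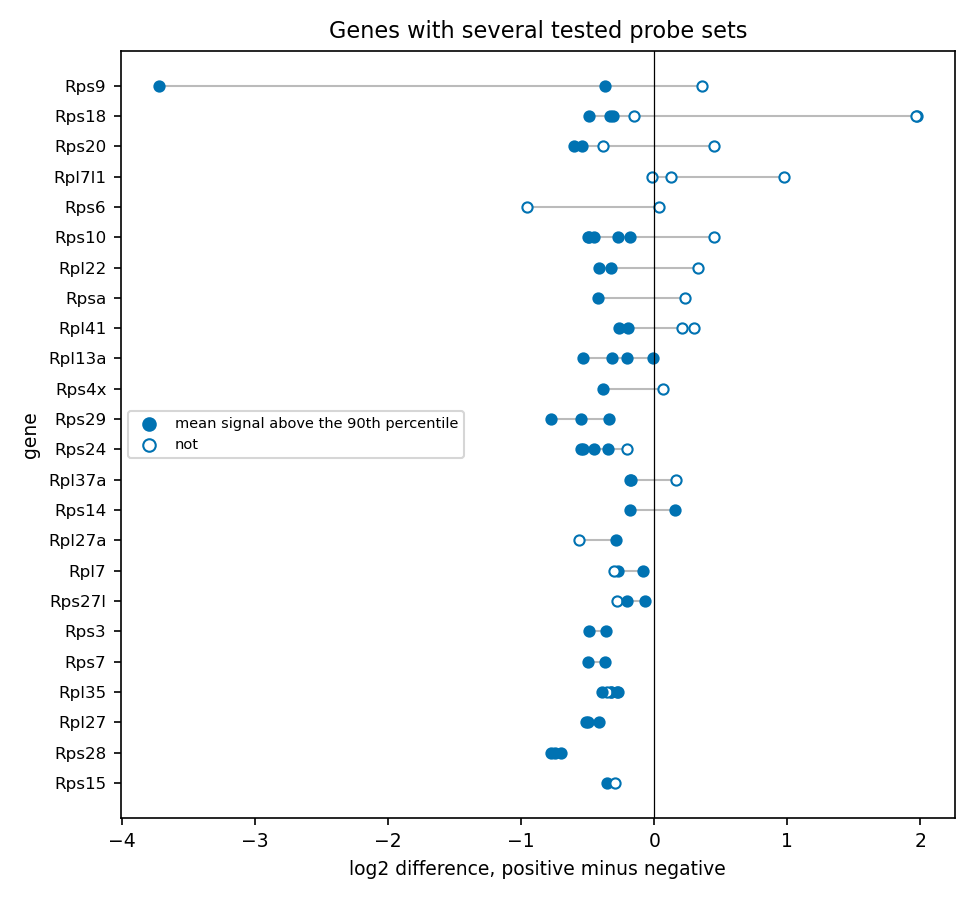
Log2 difference of positive minus negative for every tested probe set of the 24 genes with several, with filled points for bright probe sets and open points for the rest, and genes ordered by the spread. Rps9, Rps18 and Rps20 span 4.09, 2.46 and 1.05, and an open point lies at the higher end of all 3.

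Of 24 genes with several tested probe sets, 12 had differences of both signs. In 11 of these 12 every probe set above 0 was not bright, and the exception was Rps14, with -0.18 and 0.16. Rps9, Rps18 and Rps20 were the 3 genes whose probe sets lay at least 1 log2 unit apart. Among the 18 genes with several bright probe sets, the spread among these was 3.35 for Rps9 and next widest for Rpl13a, at 0.522, and the median spread was 0.133. The median SE of a bright member was 0.244 and that of a dim member 0.464. Rpl35, on the rim of the exit tunnel, had 6 tested probe sets between -0.39 and -0.27, and the 2 of Rps15, at the decoding site, gave -0.35 and -0.30.

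The ending of a probe set name tells how the manufacturer judged its specificity, with _a_at for several transcripts of 1 gene, _s_at for transcripts of several genes and _x_at for probes that may bind unrelated transcripts. Members ending in _at alone had a median of -0.09, with 15 of 28 below 0. Those ending in _a_at had -0.35 with 28 of 28 below 0, those in _x_at -0.34 with 33 of 39, and the 3 in _s_at -0.32 with 2 below 0. Over all tested probe sets the medians for these endings were 0.09, 0.04, -0.22 and -0.02. Bright were 7 of the 28 members ending in _at, 27 of the 28 in _a_at, 33 of the 39 in _x_at and 2 of the 3 in _s_at. Of the 29 dim members, 13 lay below 0, with a median of 0.07, and of the 69 bright ones, 65 did, with a median of -0.35. The 7 bright members ending in _at had a median of -0.37, with 5 below 0, and the 21 dim ones 0.03, with 10 below 0. Of all bright probe sets of the array, 59.1% lay below 0, with a median of -0.08. The parts of ending and signal were not tested apart.

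**Figure D5:**
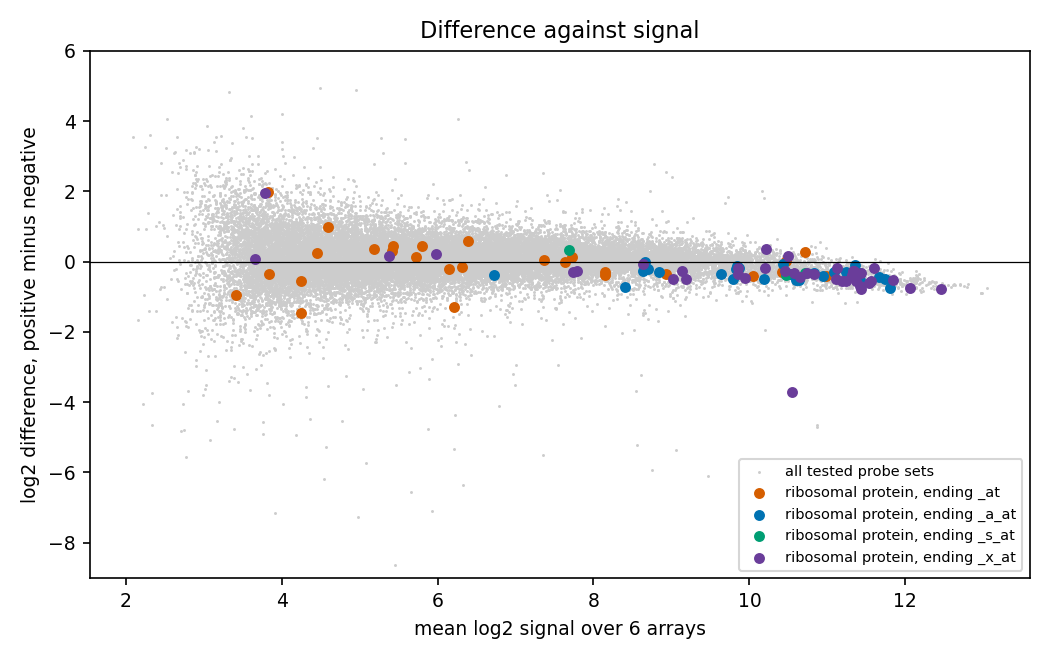
Log2 difference of positive minus negative against the mean log2 signal over the 6 arrays, for all 27738 tested probe sets in grey and for the 98 ribosomal protein probe sets coloured by the ending of their name. Bright ribosomal protein probe sets form a band below 0, dim ones scatter on both sides, and Rps9 1434624_x_at stands alone at -3.72.

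Genes that work with the ribosome were taken from lists, with the brightest probe set of each gene. Of 21 listed translation factors and other mRNAs with a pyrimidine tract, 17 were tested by limma, 0 passed in either direction, and 2 had an unadjusted p under 0.05. All 17 lay below 0, against 59.1% of all bright probe sets. The median was -0.29, or 0.06 with the spike-in level as a block. Tpt1, the translationally controlled tumour protein, read 2791, 2697 and 5318 against 5023, 5415 and 4525, with positive replicates 1 and 2 low, as for the bright members. It gave -0.54 (SE 0.27, adjusted p = 0.563), and Eef1a1, the elongation factor that brings transfer RNA, gave -0.50. Without positive replicate 3, 4 of the 17 passed and were lower, against 9.71% of all bright probe sets in that fit.

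Of 36 ribosome assembly factors and RNA polymerase I genes, 35 were tested, 0 passed in either direction (2 at an unadjusted p under 0.05) and 12 lay below 0, with a median of 0.13. Ncl, which encodes nucleolin, read 1393, 1584 and 1761 against 1881, 1491 and 1567, with overlapping groups and a difference of -0.059 (SE 0.21). Nop56, of the box C/D particles, gave -0.044. Of 15 genes of mTORC1 and S6 kinase signalling, 14 were tested, 0 passed (2 at an unadjusted p under 0.05) and 5 lay below 0, with a median of 0.13. Pdcd4, an inhibitor of translation initiation that S6 kinase marks for degradation, gave -0.81 (SE 0.26, adjusted p = 0.338). With the spike-in level as a block it gave -0.21, and without positive replicate 3 -1.11 (adjusted p = 0.00542). Eif4e, the cap-binding factor, gave 0.42, but -0.12 with the block and 0.69 without positive replicate 3. Larp1 gave 0.58 (SE 0.22, adjusted p = 0.437).

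The mitochondrial ribosome, a separate particle with nuclear-encoded proteins, gave a median of -0.03 over 73 tested genes, with 43 below 0, 0 passing and 3 at an unadjusted p under 0.05. Mrpl11 gave -0.019 and Mrpl39 -0.31. With the spike-in level as a block, the medians of the assembly, signalling and mitochondrial lists were 0.07, -0.08 and 0.0025. No test compared these lists with the cytoplasmic ribosomal proteins.

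The labels and the other cell types of the tissue were examined in the same arrays. Lmx1a read 146, 169.6 and 78.7 in positive and 3.74, 9.75 and 1.81 in negative arrays. It entered the test through the positive arrays alone, and set against the 40th percentile of the negative arrays it was at least 9.65-fold higher in positive cells (adjusted p = 0.00215). Th, the enzyme that makes the dopamine precursor, read 188, 214 and 118 against 12.2, 1.44 and 10.5, with 1 of the 3 negative arrays above the 40th percentile (adjusted p = 0.00498). Neurog2 differed by 0.75 (adjusted p = 0.229). Of 10 dopaminergic markers, 9 were tested and 5 were higher in positive cells. Of the 9, 2 entered the test through the positive arrays alone, so they had to differ, and this count is no independent evidence. Pitx3 was not above the 40th percentile on any array. All 5 tested of 10 listed erythroid markers were lower in positive cells, and the 8 with a probe set, of which 3 were above the 40th percentile on no array, summed to 317 to 629 on the positive and 7513 to 14933 on the negative arrays. Of 10 macrophage markers, 6 were tested and 5 were lower, with sums of 32.8 to 51.7 against 494 to 1161. Of the tested ones, 2 erythroid and 5 macrophage markers entered the test through the negative arrays alone, so they had to differ, and these counts are no independent evidence. No neuron marker of 8 and no cycling cell marker of 7 tested passed, with 2 and 1 at an unadjusted p under 0.05, and 1 of 8 radial glia markers, Pax6, was lower. Of those 8, 7 lay below 0 and 4 had an unadjusted p under 0.05, with a median of -0.55, or -0.21 with the spike-in level as a block, and Fabp7 gave -1.18 (adjusted p = 0.0668). Of the endothelial markers 1 of 8 was tested and of the mesenchymal ones 4 of 7, and none passed or had an unadjusted p under 0.05. The part of these cell types in the ribosomal protein values was not tested.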

How the data were processed

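RNA of the sorted cells was labelled with biotin and hybridized, 1 sample to an array (per the labels' protocols). The authors deposited a table of intensity values per probe set, made with MAS5, and used limma and R 2.14.2, per the submitters' processing notes. The deposited intensity has a trimmed mean near 100 on each array, with 2% trimmed at either end, and no detection calls were used here. The genome build is not given in the sources used here, so probe sets were named from the platform table.

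Deposited intensities under 1 were set to 1 and taken to log2. The 64 control probe sets were left out. The comparison was a two-sided moderated test on all 6 arrays (limma 3.58.1, R 4.3.3, lmFit and eBayes, trend on mean signal), with 4 residual degrees of freedom. P-values were adjusted by Benjamini-Hochberg over the 27738 tested probe sets, at a threshold of 0.05. The number of arrays limits the precision. The procedure was tested on simulated data. Sequences came from RefSeq tables of GRCm38.p6, and all 105 probe sets matched by Entrez ID. Plots used matplotlib 3.10.9 under Python 3.11.15.

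The members, the lists and the tests were chosen with earlier results of these data known. Named probe sets were all of Rps9, those past the threshold, the 6 largest differences each way, genes spread by at least 1 log2 unit, paralogs, stalk, 5S particle and signalling proteins, the check of labels, and the 2 brightest or any passing gene of other lists. Other members named were chosen after their values were seen, as was Larp1. The same holds for the probe sets with several symbols named for Rps2, Rps6, Rps15a, Rps16, Rps25, Rps27, Rpl12, Rpl14, Rpl17 and Rpl37. Alternatives were normalization, filter, log scale, variance model, choice of probe set, replicate block, spike-in level and leaving out each array.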

Additional observations from a re-analysis of the deposited data

How the results depend on the processing

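The count of ribosomal protein probe sets past the threshold was 1 under every alternative run except 3. Averaging the probe sets of each gene gave 2, Rps9 and Rpl39 (limma adjusted p = 0.0406 for Rpl39). Without endings _s_at, _x_at and _a_at it was 0, with 3 of the 28 left at an unadjusted p under 0.05. Leaving out single arrays gave 1 to 22, with 22 only without positive replicate 3. The median difference of -0.32 became -0.086 without those endings, 0.079 blocked on the spike-in level and 0.070 on only the 4 arrays of its higher level, and -0.49 to -0.21 with single arrays left out. Quantile normalization gave -0.11, and the other alternatives lay between -0.36 and -0.30. The count of 149 over all probe sets was 36 with no filter, 56 without the trend, 98 without those endings, 60 blocked on the spike-in level, 58 on those 4 arrays, and 64 to 701 with single arrays left out. Deviations of same-numbered arrays of the 2 groups had correlations of 0.157, -0.08 and 0.06. Those of other pairs were of similar size, from -0.16 to 0.09, so these values cannot tell whether the numbers pair the samples. The main fit did not use the numbers. With the number as a replicate block, 143 probe sets and 1 member passed, with a median of -0.32. Of the values of single probe sets under the alternatives, 566 kept direction and call, 8 passed newly, all without positive replicate 3, and 61 changed sign. Averaging gave single probe sets no value, and filters gave some none. Blocking on the spike-in level, and with the same values those 4 arrays alone, turned the sign of Rps4l 1452730_at (0.54), Rps29 1438859_x_at (0.0034), Rpl7l1 1439780_at (-0.26), Rps18 1435712_a_at (0.060), Rps18 1455572_x_at (0.032), Rps20 1456436_x_at (0.10), Rpl11 1417615_a_at (0.070), Rpl22 1453118_s_at (0.15), Rpl7 1415979_x_at (0.013), Rpl7 1426162_a_at (0.43), Rpl7 1426163_x_at (0.099), Rpl7l1 1426386_at (-0.29), Rplp2 1415879_a_at (0.14), Rps27l 1450925_a_at (0.23), Rps6 1416142_at (-0.21), Rpsa 1416196_at (-0.43) and Rpsa 1448245_at (0.090). Quantile normalization turned Rps18 1435712_a_at (0.040), Rpl11 1417615_a_at (0.015), Rpl7 1426162_a_at (0.067), Rps4x 1416276_a_at (0.034) and Rps6 1416142_at (-0.035). Centring turned Rps6 1416142_at (-0.00037) and adding 32 turned Rps4x 1420303_x_at (-0.013). With single arrays left out, values ranged across 0 for Rpl7 1426162_a_at (-0.34 to 0.077), Rpl7l1 1426386_at (-0.46 to 0.44), Rpl7l1 1452049_at (-0.14 to 0.057), Rps4x 1420303_x_at (-0.59 to 0.73), Rps27l 1435429_x_at (-0.29 to 0.070), Rps6 1416142_at (-0.12 to 0.15), Rpsa 1416196_at (-0.050 to 0.56), Rps6 1453466_at (-1.43 to 0.39), Rps18 1421837_at (-0.29 to 0.042) and Rpl7l1 1439780_at (-0.48 to 1.81). The causes were not tested. With 3 arrays per group, SEs of bright members were 0.190 to 0.332, so differences of about that size cannot be resolved. Larger ones did not pass either, such as -0.78 for Rps29 1438859_x_at (SE 0.30, limma adjusted p = 0.443). The deposited values hold no read depth, and signals near the 40th percentile, 10.2 to 15.8, are imprecise.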

Other observations

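Ribosomal protein probe sets whose annotation lists several symbols, mostly a gene with its pseudogenes, were outside the selection. Of 110 such probe sets, 104 were tested and 0 passed in the limma fit. An unadjusted p under 0.05 was found for 25, against 2617 of all 27738 tested probe sets. Below 0 lay 92, with a median of -0.40. The share below 0 was 44.8% of all tested probe sets, 59.1% of all bright ones and 67.0% of all ending in _x_at. With the spike-in level as a block, 34 lay below 0 and the median was 0.08. They stand in for 29 of the 37 protein-coding ribosomal protein genes of the RefSeq table that have no member probe set, out of 85. Rplp1, the other acidic stalk protein, read 273, 343 and 632 on the positive and 728, 497 and 906 on the negative arrays on 1416277_a_at. Its positive replicate 3 lay within the negative range. The difference was -0.82 (SE 0.31, limma adjusted p = 0.438), or -0.13 with the spike-in level as a block.

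The following were picked after their values were seen. Probe set 1450840_a_at, shared by Rpl39 and Gm32211, read 2347, 2128 and 5116 against 5066, 5674 and 5129, with positive replicate 3 in the negative range, which the single-symbol Rpl39 probe set did not show. Probe set 1457726_at, shared by Rps15a and Rps15a-ps5, read 384, 383 and 331 against 180.1, 178 and 199, with the positive arrays higher. Its difference was 0.98 (SE 0.21, limma adjusted p = 0.0706). The brighter 1453467_s_at of the same symbols read 1451, 1416 and 2858 against 2822, 2674 and 2748. It gave -0.61, or 0.057 with the spike-in level as a block. Probe set 1453752_at, shared by Rpl17 and its pseudogenes, read 25.7, 37.9 and 39.9 against 119, 91.1 and 101 (difference -1.61, SE 0.33, adjusted p = 0.0532). The brighter 1423855_x_at and 1435791_x_at of the same symbols gave -0.23 and -0.40, or 0.24 and 0.15 with the spike-in level as a block.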
